A study of Mus musculus with 6 samples.

Results

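The nuclear-encoded genes of the respiratory chain were taken from the gene table by symbol, as every symbol that begins with Nduf followed by a, b, c, s or v, with Uqcr, with Cox followed by 4 to 8 or with Atp5, together with the Sdh genes a to d. The pattern matched 88 of 19467 symbols, called members from here on, of which 79 encode subunits of complexes I to V and 9 do not. The counts came from E14Tg2A mouse embryonic stem (ES) cells grown in serum with leukaemia inhibitory factor. Cells of both arms were nucleofected, that is electroporated, with 5 nmol of a Lissamine-tagged antisense oligonucleotide (ASO) and kept for 48 h, after which 300000 fluorescent cells were sorted for RNA. One arm received an ASO that targets RNA of LINE1, a family of long interspersed retrotransposons, and the other received an ASO labelled RC, the control. Each arm had 3 libraries, numbered 1 to 3 in the labels and made with a strand-preserving mRNA kit from 1 ug of RNA. The line is 1 established ES cell line, and no further genotype is given in the sources used here. The labels do not say that the libraries of an arm came from separate cultures. P-values therefore measure only the spread between these libraries, which may be technical.

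The respiratory chain sits in the inner mitochondrial membrane. Complexes I and II pass electrons from NADH and succinate to coenzyme Q, complex III passes them on to cytochrome c and complex IV to oxygen, and complexes I, III and IV pump protons that drive ATP synthesis by complex V. Apart from complex II, each is built from subunits of both genomes; the mitochondrially encoded subunits were not analysed here. Mouse ES cells in serum draw on both glycolysis and oxidative phosphorylation.

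Gene-assigned reads numbered 26633433 to 31704616 in the LINE1 ASO libraries and 19954026 to 29092272 in the RC ASO libraries. Levels are given as CPM, counts scaled to a common library total with TMM factors, which were 1.02 to 1.04 in the LINE1 ASO arm and 0.962 to 0.991 in the RC ASO arm. The 6 L1Md names, the young mouse LINE1 families, summed to 7219, 3275 and 6585 CPM in LINE1 ASO libraries 1, 2 and 3 and to 7891, 3931 and 7781 CPM in RC ASO libraries 1, 2 and 3. The arms overlapped, each LINE1 ASO library was below the RC ASO library of its number, and the label was not otherwise checked on the target RNA. Of the 8 ES cell markers tested all were detected, with Pou5f1 at 824 ± 44.9 CPM in LINE1 ASO cells and 1059 ± 70.2 CPM in RC ASO cells (SD, n = 3 each), while the fibroblast feeder markers summed to 37.4 ± 6.40 CPM in LINE1 ASO cells and 43.2 ± 7.12 CPM in RC ASO cells. Replicate 2 stood apart in both arms, so counts are also given without both replicate 2 libraries.

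Respiratory chain genes were lower in LINE1 ASO cells by a small amount that was shared by nearly all of them. Of the 85 members that passed the count filter, 78 had a log2 fold change (LINE1 ASO over RC ASO) below 0, against 49% of the 14725 genes tested, and their median was -0.20 (quartiles -0.25 and -0.13), against 0.01 for all genes tested. The summed level of the 88 members was 9290, 9839 and 9411 CPM in LINE1 ASO libraries 1, 2 and 3 and 10874, 11181 and 10881 CPM in RC ASO libraries 1, 2 and 3. All LINE1 ASO libraries were thus below all RC ASO libraries, and the mean was 13.3% lower in the LINE1 ASO arm. On this scale the summed level of all genes tested also had all LINE1 ASO libraries below all RC ASO libraries. Its mean changed by -5.5174%, so the separation of the sums is not particular to the members. With library totals in place of TMM the median of the members was -0.12 beside a median of 0.09 for all genes tested, and 71 members were below 0.

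Few single members passed the test without regard to the replicate numbers. At an adjusted p under 0.05 (edgeR's quasi-likelihood test, adjusted over all genes by Benjamini-Hochberg), 4 of 85 members were called lower (4.71%), where 1.17% of all genes were, and 0 members were called higher, where 4.93% of all genes were. The members called were Cox7b, Atp5j2, Atp5c1 and Ndufb5. At an unadjusted p under 0.05 there were 41 lower (8.6% of all genes) and 0 higher (13.5% of all genes), and DESeq2 called 23 lower (4.07% of all genes) and 0 higher (6.97% of all genes). In 51 members (60%) all LINE1 ASO libraries were below all RC ASO libraries (11.9% of all genes), and in 0 members were they all above (16.8% of all genes).

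Libraries of the same number deviated together from their arm means, so the arms were also compared within numbers. With the replicate number as a block, edgeR called 57 of 85 members lower (67.1%), where 16.1% of all genes were, and Cox6b2 alone higher, where 17.6% of all genes were. Within the pairs, 71 members were lower in 3 of 3 (30.5% of all genes) and 3 members were higher in 3 of 3 (32.8% of all genes). The median log2 ratio of the members was -0.21, -0.16 and -0.21 in pairs 1, 2 and 3. Without both replicate 2 libraries 32 of 86 members were called lower (8.3% of all genes) and 0 higher (12.2% of all genes).

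**Figure D1:**
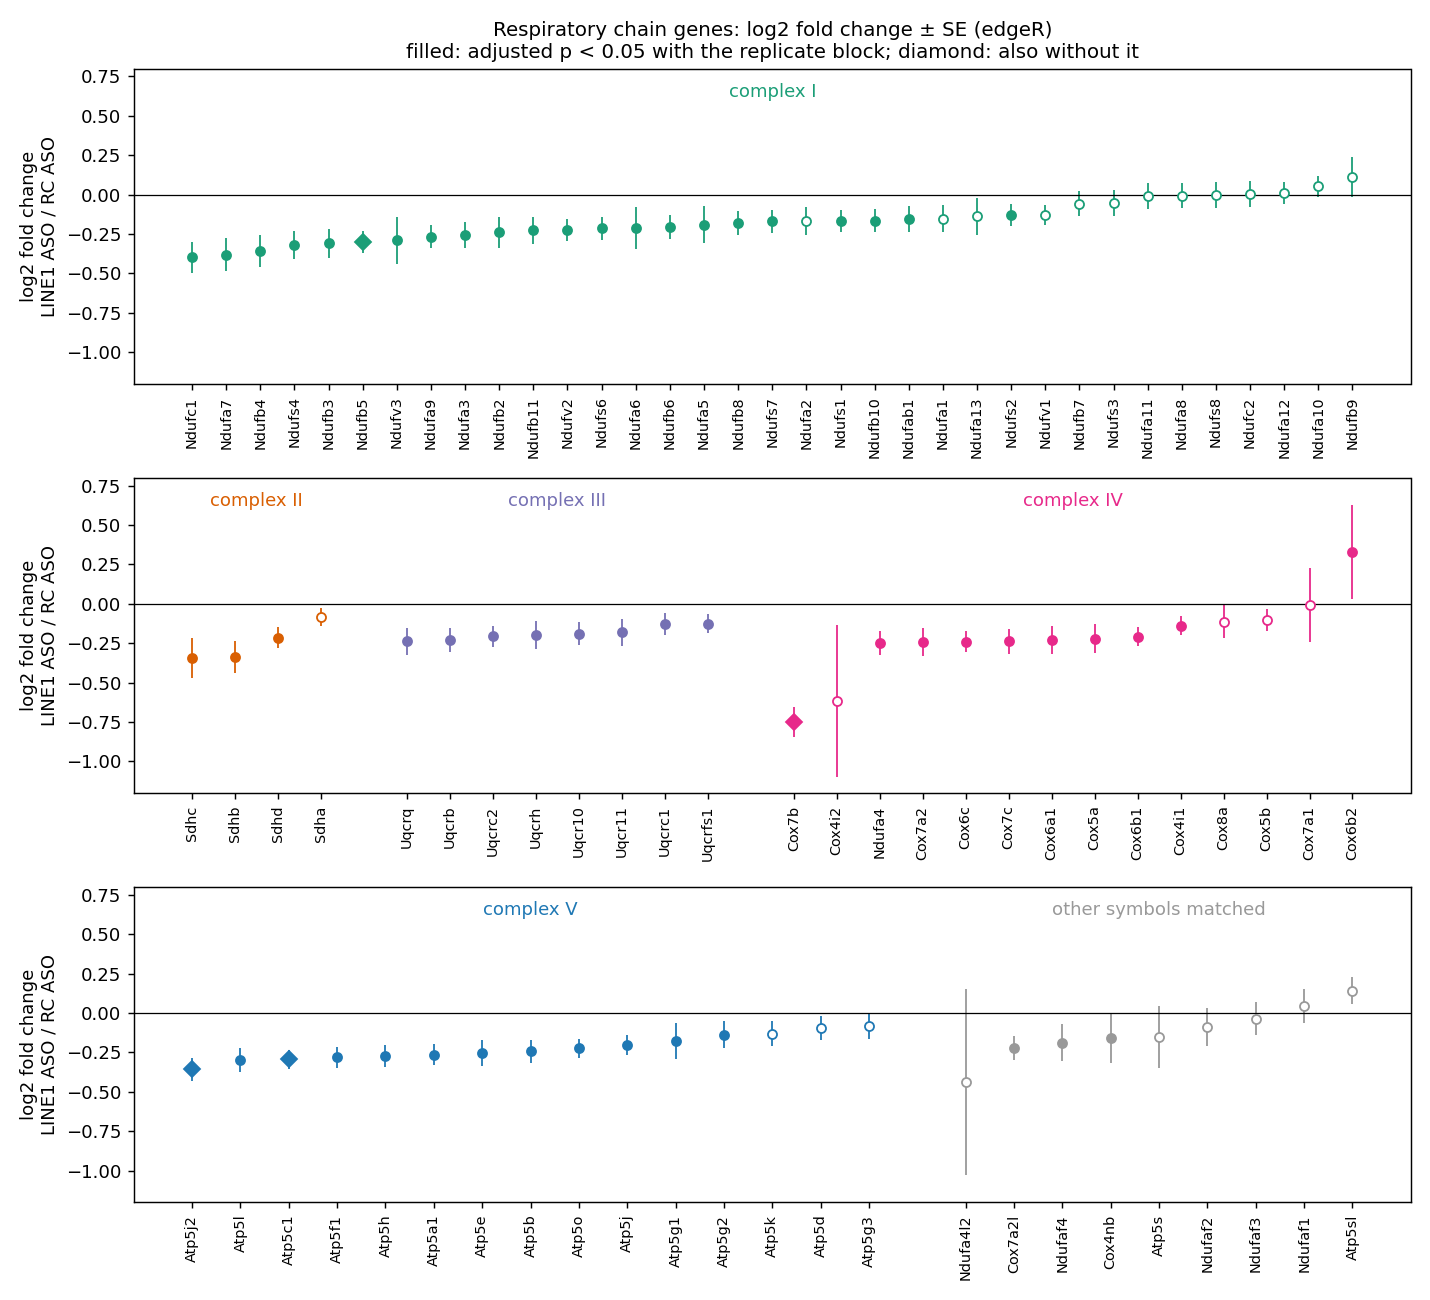
Log2 fold change (LINE1 ASO over RC ASO, vertical axis) with its standard error for each tested member, by complex and ordered from low to high. Filled symbols passed an adjusted p under 0.05 with the replicate block and diamonds also passed without it; 78 of 85 members lie below 0.

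Each of complexes I to V had a lower summed level in LINE1 ASO cells. The summed level in the LINE1 ASO arm was 10.4% lower for complex I, 12.3% for complex II and 11.3% for complex III. It was 13.6% lower for complex IV and 15.2% for complex V. In each complex all LINE1 ASO libraries were below all RC ASO libraries. The same separation held for the sum over all genes tested, whose mean changed by -5.5174%. Median log2 fold changes were -0.17, -0.28, -0.20, -0.23 and -0.24 for complexes I to V in that order. Differences between complexes were not tested, since their genes are not replicates of a condition.

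**Figure D2:**
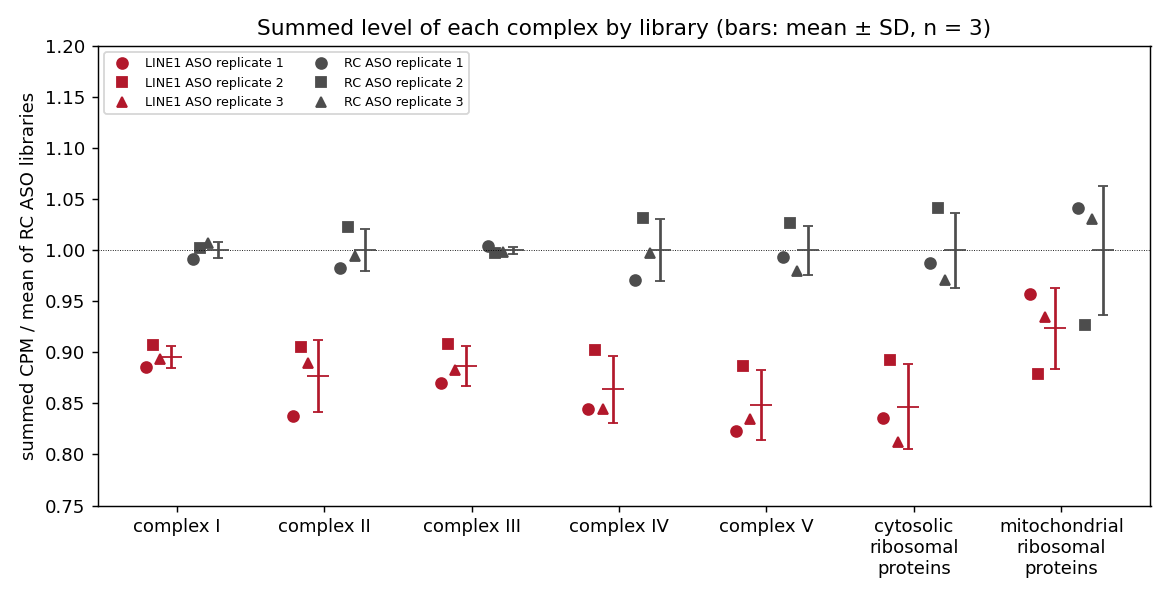
Summed CPM of each complex in each library, divided by the mean of the RC ASO libraries (vertical axis, starting at 0.75), for complexes I to V and for cytosolic and mitochondrial ribosomal protein genes; bars are means ± SD (n = 3). In complexes I to V and in cytosolic ribosomal proteins every LINE1 ASO point lies below every RC ASO point, and the mitochondrial ribosomal proteins overlap. The sum over all genes tested was also lower in every LINE1 ASO library than in every RC ASO library.

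Complex I, NADH dehydrogenase, has core subunits that carry the flavin and the iron-sulfur clusters and many accessory subunits around them. Ndufa4 was counted with complex IV. The 35 genes of complex I matched by the pattern summed to 1924, 1970 and 1940 CPM in LINE1 ASO libraries and to 2152, 2175 and 2186 CPM in RC ASO libraries. Of these genes 1 (2.86%) was called lower without the block, where 1.17% of all genes were. With the block 22 (62.9%) were, where 16.1% of all genes were. Among the 7 nuclear core subunits 4 were called lower with the block (median -0.13), and among the 28 accessory subunits 18 were (median -0.20).

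Ndufb5, an accessory subunit of the membrane arm, was at 57.4, 55.2 and 53.7 CPM in LINE1 ASO libraries and at 70.2, 68.7 and 66.2 CPM in RC ASO libraries. The arms did not overlap, and Ndufb5 fell by 0.30 on the log2 scale (SE 0.069, Benjamini-Hochberg adjusted p = 0.0463, edgeR's quasi-likelihood test). Exons of Ndufb5 overlap those of Mrpl47 on the other strand and share 8.98% of their 50-base sequences with it, and the strand setting of the counting is not given in the sources used here. Ndufc1, the accessory subunit with the lowest fold change in complex I, was at 22.0, 24.8 and 22.7 CPM in LINE1 ASO libraries and at 28.7, 33.4 and 29.5 CPM in RC ASO libraries. Its log2 fold change was -0.40 ± 0.099 (SE), with an adjusted p of 0.0594 in edgeR without the block and 0.00104 with it. Ndufa7, an accessory subunit at 114 RPKM (CPM per kilobase of transcript) in LINE1 ASO cells and 149 RPKM in RC ASO cells, the highest level per length of complex I in RC ASO cells, had a log2 fold change of -0.38 ± 0.10 (edgeR adjusted p = 0.0762 without the block and 0.000376 with it).

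Genes of the catalytic core of complex I had log2 fold changes from -0.23 to -0.0027. Ndufs1, the largest iron-sulfur subunit, was at 191, 187 and 203 CPM in LINE1 ASO libraries and at 216, 207 and 230 CPM in RC ASO libraries. The arms did not overlap, and Ndufs1 was called with the block (edgeR adjusted p = 0.00823) and not without it (0.211). Ndufs7, which holds the last cluster before coenzyme Q, was likewise called with the block only (log2 fold change -0.17, edgeR adjusted p = 0.0369 with the block and 0.233 without). Ndufv1, the NADH-binding flavoprotein, was at 118 ± 4.53 CPM in LINE1 ASO cells and 129 ± 3.03 CPM in RC ASO cells and was called by neither fit. Ndufs8, a ferredoxin-like iron-sulfur subunit, was at 34.1, 31.9 and 33.0 CPM in LINE1 ASO libraries and at 34.1, 30.6 and 34.5 CPM in RC ASO libraries, and these ranges overlapped. Ndufb9, an accessory subunit, had the highest fold change of the complex, 0.11 ± 0.13 (SE) on the log2 scale, with overlapping arms; its exons share 23.4% of their 50-base sequences with other genes.

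Complex II, succinate dehydrogenase, links the tricarboxylic acid cycle to the chain and is wholly nuclear-encoded. Its 4 genes summed to 519, 561 and 552 CPM in LINE1 ASO libraries and to 610, 634 and 617 CPM in RC ASO libraries. In each gene all LINE1 ASO libraries were below all RC ASO libraries (11.9% of all genes). With the block 3 genes (75%) were called lower, where 16.1% of all genes were. Without it edgeR called 0, with 3 at an unadjusted p under 0.05 (8.6% of all genes), and DESeq2 called 2 (4.07% of all genes). Sdhb, the iron-sulfur subunit, was at 56.1, 70.6 and 60.7 CPM in LINE1 ASO libraries and at 73.2, 84.8 and 78.6 CPM in RC ASO libraries, with a log2 fold change of -0.34 ± 0.10 (edgeR adjusted p = 0.106 without the block, 0.000768 with it). Sdhc, a membrane anchor, had a log2 fold change of -0.34 ± 0.13 (edgeR adjusted p = 0.165 without the block, 0.000569 with it), with 77.3, 102.0 and 93.6 CPM in LINE1 ASO libraries and 103.3, 131.1 and 111.4 CPM in RC ASO libraries. Sdhd, the other anchor, was at 94.5 RPKM in LINE1 ASO cells and 110 RPKM in RC ASO cells, with a log2 fold change of -0.21 ± 0.066. Sdha, the flavoprotein with the active site, was at 267, 278 and 278 CPM in LINE1 ASO libraries and at 293, 288 and 292 CPM in RC ASO libraries and was called by neither fit (edgeR adjusted p = 0.44 without the block, 0.117 with it).

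Complex III, the cytochrome bc1 complex, had all of its matched members on the same side of 0. Its 8 genes matched by the pattern summed to 826, 862 and 838 CPM in LINE1 ASO libraries and to 953, 947 and 948 CPM in RC ASO libraries. All 8 were called lower with the block, where 16.1% of all genes were. Without it edgeR and DESeq2 called 0, and 4 had an unadjusted p under 0.05 in edgeR (8.6% of all genes). Log2 fold changes of the 8 ran from -0.24 to -0.13. Uqcrq, a small subunit of the membrane part, was lowest at -0.24 ± 0.085, with 60.0, 65.6 and 60.1 CPM in LINE1 ASO libraries and 74.0, 66.9 and 78.2 CPM in RC ASO libraries. Its replicate 2 values differed least between the arms. Uqcrc1, a core protein and the member of complex III with the highest level per length, was at 274 ± 15.9 CPM in LINE1 ASO cells and 299.6 ± 12.3 CPM in RC ASO cells. Uqcrfs1, the Rieske iron-sulfur protein, was at 103, 102 and 99.0 CPM in LINE1 ASO libraries and at 109, 114 and 108 CPM in RC ASO libraries; its log2 fold change of -0.13 ± 0.063 was the nearest to 0 in complex III. Cyc1, the cytochrome c1 subunit that the pattern does not match, had a log2 fold change of -0.21 (edgeR adjusted p = 0.107 without the block, 0.00394 with it).

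Complex IV, cytochrome c oxidase, held the member with the largest change, Cox7b, a small subunit that human cells need to assemble the enzyme. Cox7b was at 50.8, 63.6 and 53.5 CPM in LINE1 ASO libraries (1648, 1974 and 1456 reads) and at 93.0, 94.3 and 95.3 CPM in RC ASO libraries (1786, 2510 and 2669 reads). All LINE1 ASO libraries were far below all RC ASO libraries. Cox7b fell by 0.75 on the log2 scale (SE 0.095, Benjamini-Hochberg adjusted p = 0.00682, edgeR's quasi-likelihood test), a level 40.6% lower, and only 12 of the 6020 genes at 32 CPM or more had a lower fold change. It was called under all alternatives run, with log2 fold changes from -0.89 to -0.67. Among the reads of the 11 broadly expressed complex IV subunits, Cox7b took 4.17%, 4.92% and 4.39% in LINE1 ASO libraries and 6.62%, 6.35% and 6.60% in RC ASO libraries. Cox7b lies on chromosome X, shares 0.63% of its 50-base sequences with other genes and has no exon overlap in the annotation used.

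The other broadly expressed subunits of complex IV differed less. The 11 genes summed to 1219, 1293 and 1219 CPM in LINE1 ASO libraries and to 1406, 1485 and 1444 CPM in RC ASO libraries. Their median log2 fold change was -0.23, and 9 (81.8%) were called lower with the block, where 16.1% of all genes were. Cox4i1, the largest nuclear subunit, was at 255, 255 and 238 CPM in LINE1 ASO libraries and at 271, 278 and 274 CPM in RC ASO libraries. The arms did not overlap (log2 fold change -0.14 ± 0.061; edgeR adjusted p = 0.239 without the block, 0.0242 with it), and its exons overlap those of Emc8 on the other strand, listed in the table as Cox4nb. Cox5a, a matrix-side subunit, was at 169 ± 12.8 CPM in LINE1 ASO cells and 197 ± 19.9 CPM in RC ASO cells, and Cox6b1, which faces the intermembrane space, at 98.2 ± 1.67 CPM in LINE1 ASO cells and 113.5 ± 2.71 CPM in RC ASO cells. Both were called with the block only (edgeR adjusted p = 0.00244 and 0.00432); 32% of the 50-base sequences of Cox5a occur in other genes.

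The tissue-restricted isoforms of complex IV were at lower levels than its broadly expressed subunits, and Cox6b2 had the highest level among them. Cox6b2, the testis form of Cox6b, was at 11.5, 18.7 and 10.5 CPM in LINE1 ASO libraries and at 8.96, 15.1 and 8.18 CPM in RC ASO libraries. The arms overlapped, but each LINE1 ASO library was above the RC ASO library of its number, and Cox6b2 was the single member called higher with the block (log2 fold change 0.33; edgeR adjusted p = 0.0129 with the block, 0.577 without). Cox4i2, the lung form of Cox4, was at 0.586, 1.64 and 1.32 CPM in LINE1 ASO libraries and at 1.15, 2.97 and 1.25 CPM in RC ASO libraries, with overlapping arms; its level per length was 1.63 RPKM in LINE1 ASO cells, where that of Cox4i1 was 335 RPKM. Cox7a1, the muscle form of Cox7a, was at 4.02 ± 0.914 CPM in LINE1 ASO cells and 4.02 ± 0.791 CPM in RC ASO cells. Cox6a2, Cox7b2 and Cox8c did not pass the count filter, and their highest levels in any library were 0.290, 0.500 and 0.451 CPM.

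**Figure D3:**
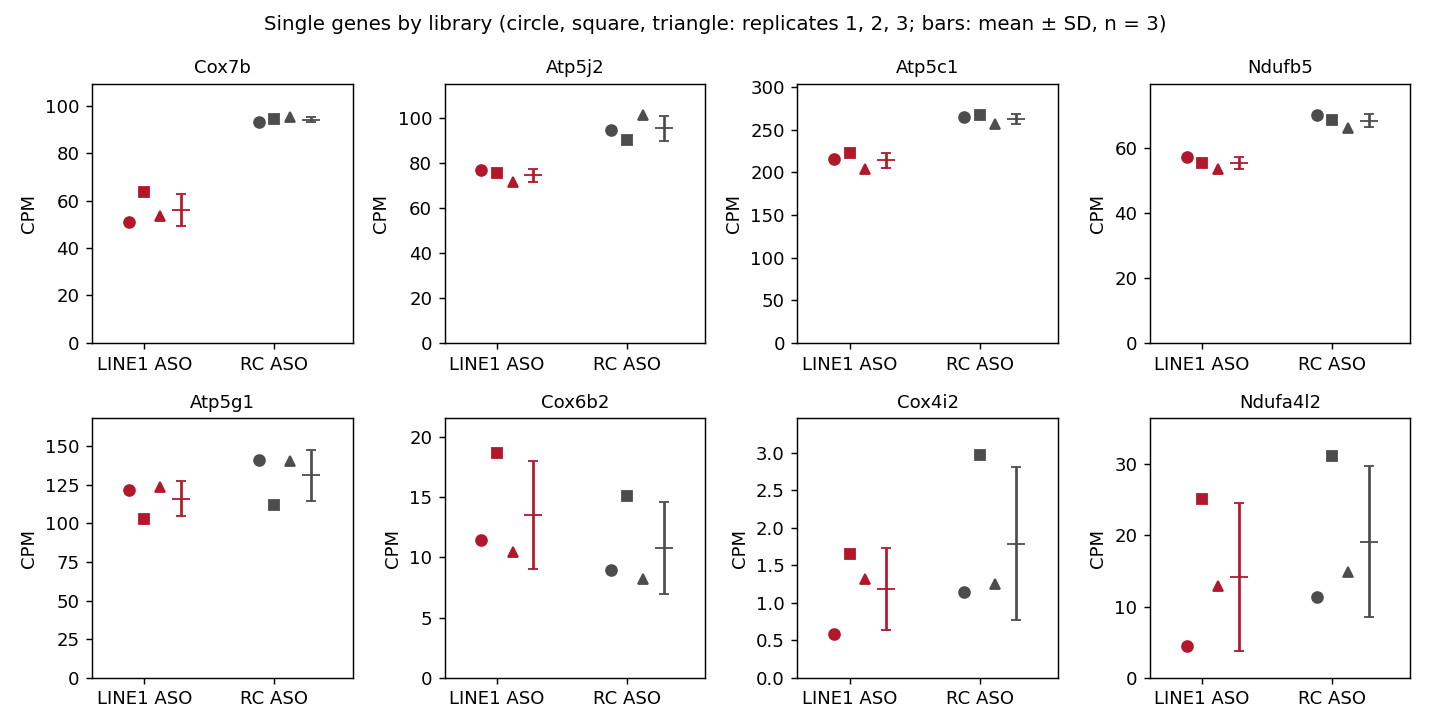
CPM of 8 members in each library (circle, square and triangle for replicates 1, 2 and 3), with bars for mean ± SD (n = 3) and each vertical axis starting at 0. In Cox7b, Atp5j2, Atp5c1 and Ndufb5 the arms do not overlap, and in Atp5g1, Cox6b2, Cox4i2 and Ndufa4l2 replicate 2 lies apart from replicates 1 and 3 in at least 1 arm.

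Complex V, ATP synthase, held the most abundant members. Its 15 genes matched by the pattern summed to 4419, 4766 and 4485 CPM in LINE1 ASO libraries and to 5337, 5517 and 5266 CPM in RC ASO libraries. All 15 had a fold change below 0 (49% of all genes) and were lower in 3 of 3 pairs (30.5% of all genes). Without the block 2 (13.3%) were called lower, where 1.17% of all genes were, and with it 12 (80%), where 16.1% were.

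Among the genes of the catalytic head and central stalk, 4 of 5 were called lower with the block (median log2 fold change -0.26). Atp5b, the catalytic beta subunit and the member with the highest level per length (874 RPKM in LINE1 ASO cells and 1034 RPKM in RC ASO cells), was at 1585, 1795 and 1645 CPM in LINE1 ASO libraries and at 1941, 2092 and 1912 CPM in RC ASO libraries. Atp5a1, the alpha subunit, was at 1150, 1292 and 1207 CPM in LINE1 ASO libraries and at 1438, 1522 and 1422 CPM in RC ASO libraries. In both genes the arms did not overlap. The edgeR adjusted p was 0.0947 without the block and 0.000569 with it for Atp5b, and 0.064 and 0.000419 for Atp5a1. Atp5c1, the gamma subunit that turns inside the head, was at 216, 222 and 204 CPM in LINE1 ASO libraries and at 265, 267 and 256 CPM in RC ASO libraries. Atp5c1 fell by 0.29 on the log2 scale (SE 0.063, edgeR adjusted p = 0.0386).

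In the membrane sector, Atp5j2, the f subunit, was at 77.0, 75.6 and 71.5 CPM in LINE1 ASO libraries and at 94.9, 90.6 and 101.6 CPM in RC ASO libraries. The arms did not overlap, and Atp5j2 fell by 0.36 on the log2 scale (SE 0.074, edgeR adjusted p = 0.0347). The calls of Atp5j2, Atp5c1 and Ndufb5, but not that of Cox7b, were lost without replicate 1 or 3 of either arm and with library totals, and that of Ndufb5 also without LINE1 ASO replicate 2. All 4 genes of the peripheral stalk were called lower with the block (median -0.25). The rotating c ring is encoded by Atp5g1, Atp5g2 and Atp5g3, which give the same mature protein, and its summed level was 529, 514 and 524 CPM in LINE1 ASO libraries and 588, 547 and 574 CPM in RC ASO libraries. The median log2 fold change of these genes was -0.14, their arms overlapped gene by gene, and Atp5g1 and Atp5g2 were called with the block while Atp5g3 was not (edgeR adjusted p = 0.0118, 0.0265 and 0.116). In Atp5g2 38.3% and in Atp5g1 11.1% of 50-base sequences occur in other genes, so their counts are less certain.

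The 9 matched genes that are not subunits had log2 fold changes from -0.44 to 0.14. The complex I assembly factors Ndufaf1 to Ndufaf4 had a median log2 fold change of -0.06, and 1 (25%) was called lower with the block, where 16.1% of all genes were. Cox7a2l, which takes part in joining complexes III and IV, was at 122, 132 and 118 CPM in LINE1 ASO libraries and at 138, 156 and 141 CPM in RC ASO libraries (log2 fold change -0.22 ± 0.079; edgeR adjusted p = 0.148 without the block, 0.003 with it). Ndufa4l2, a relative of Ndufa4 known as a hypoxia target, was at 4.44, 25.1 and 12.9 CPM in LINE1 ASO libraries and at 11.4, 31.2 and 14.8 CPM in RC ASO libraries. Its level was highest in replicate 2 of both arms, and neither fit called it. Cox4nb, Atp5s and Atp5sl, which carry the prefix without being subunits, had a median of -0.15.

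Related genes outside the pattern were read from lists of the pathway. Of 10 further complex I assembly factors and 31 assembly factors of complexes II to V, 0 were called in either direction without the block; with it, 3 (30%) and 3 (9.68%) were called lower, where 16.1% of all genes were, and 0 and 2 (6.45%) higher, where 17.6% of all genes were. Their median log2 fold changes were -0.12 and 0.01. At an unadjusted p under 0.05 there were 2 and 3 lower (8.6% of all genes), and 0 and 1 higher (13.5% of all genes). In the assembly list of complexes II to V, Cox17, a copper chaperone of complex IV, was at 27.96 ± 0.363 CPM in LINE1 ASO cells and 35.8 ± 2.60 CPM in RC ASO cells, while Sco2, another copper chaperone of complex IV, was at 6.44, 3.67 and 3.71 CPM in LINE1 ASO libraries and at 2.14, 2.25 and 2.04 CPM in RC ASO libraries (edgeR adjusted p = 0.0534 and 0.0513 without the block, 0.00260 and 0.00188 with it); both were chosen after their values were seen. Among 16 genes of electron carriers and coenzyme Q synthesis (median -0.16), 7 (43.8%) were called lower and 3 (18.8%) higher with the block. Of all genes 16.1% and 17.6% were. Among 18 regulators of respiratory genes and of mitochondrial DNA (median -0.06), 6 (33.3%) were called lower and 0 higher with the block. Without it edgeR called 0 of either list, with 3 and 3 lower at an unadjusted p under 0.05 (8.6% of all genes). Among 18 tricarboxylic acid cycle genes 2 (11.1%) were called lower without the block, where 1.17% of all genes were, and 9 (50%) with it (median -0.14).

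The tricarboxylic acid cycle genes called without the block were Pdha1 and Idh3a. Pdha1, the alpha subunit of pyruvate dehydrogenase, was at 275, 335 and 301 CPM in LINE1 ASO libraries and at 380, 428 and 403 CPM in RC ASO libraries, and fell by 0.41 on the log2 scale (edgeR adjusted p = 0.0400). Idh3a, a subunit of the NAD-dependent isocitrate dehydrogenase, was at 122, 139 and 134 CPM in LINE1 ASO libraries and at 158, 168 and 171 CPM in RC ASO libraries, and fell by 0.33 (edgeR adjusted p = 0.0443). In neither gene did the arms overlap.

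Lower levels were also seen in other abundant genes of short transcripts. The members had a median level of 67.1 CPM and a median transcript length of 865 bases, where all genes tested had 21.2 CPM and 2929 bases. At 16 to under 64 CPM the median log2 fold change was -0.18 in 36 members and -0.0016 in 4430 other genes, at 64 to under 256 CPM it was -0.21 in 37 members and -0.06 in 2923 other genes, and at 256 CPM or more it was -0.19 in 6 members and -0.14 in 732 other genes. For transcripts under 1000 bases at 16 to under 256 CPM it was -0.21 in 45 members and -0.11 in 289 other genes, and for transcripts of 2000 bases or more at the same levels -0.16 in 8 members and -0.01 in 5545 other genes. At 4 to under 16 CPM it was -0.04 in 5 members and 0.05 in 2861 other genes. Without the block, calls lower among the short transcripts at 16 to under 256 CPM made up 2.22% of members and 4.84% of other genes, and at 256 CPM or more 0 of 6 members and 6.97% of other genes. With the block the same shares were 68.9% and 37.0% for the short transcripts and 83.3% and 57.4% at 256 CPM or more. In these classes the share of members called was therefore not higher without the block and was higher with it. By level alone, calls lower without the block made up 2.78% of members and 0.632% of other genes at 16 to under 64 CPM. At 64 to under 256 CPM they made up 8.11% of members and 2.70% of other genes. The part of level and length in the members' values was not tested.

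**Figure D4:**
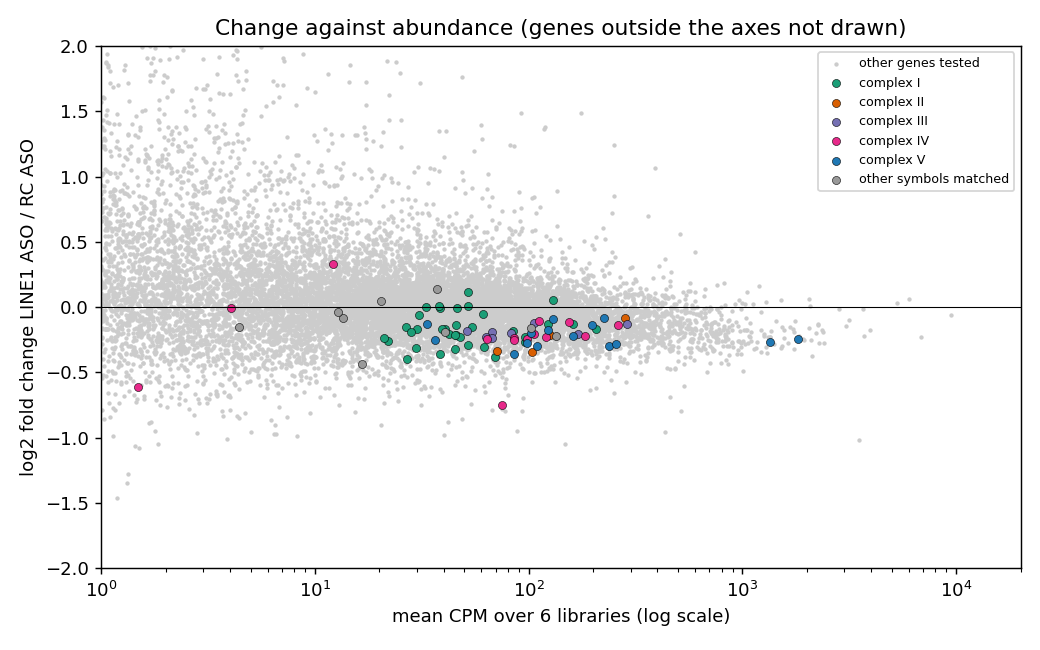
Log2 fold change (LINE1 ASO over RC ASO) against mean CPM over the libraries (log axis), with other tested genes in grey and members coloured by complex. Most members lie between 16 and 256 CPM and below 0, and Cox7b lies lowest among the members above 16 CPM.

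Ribosomal protein genes, which are also short and abundant, gave a comparison. Of 77 cytosolic ribosomal protein genes tested 21 were called lower without the block (27.3%, where 1.17% of all genes were) and 66 with it (85.7%, where 16.1% were). Their median log2 fold change was -0.26. Their summed level was 52000, 55548 and 50520 CPM in LINE1 ASO libraries and 61447, 64817 and 60449 CPM in RC ASO libraries. Of 76 mitochondrial ribosomal protein genes 2 (2.63%) were called lower without the block and 23 (30.3%) with it, with a median of -0.10. With the block 3 of them (3.95%) were called higher, where 17.6% of all genes were. The respiratory chain genes had 4.71% called without the block and a median of -0.20, and no difference between the lists was tested.

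Markers of other cell states differed between the same libraries. The 6 markers of 2-cell-like cells, a rare state of ES cultures, summed to 134.8, 52.4 and 68.6 CPM in LINE1 ASO libraries 1, 2 and 3 and to 5.57, 5.75 and 4.43 CPM in RC ASO libraries 1, 2 and 3. Without the block 6 of 6 were called higher, where 4.93% of all genes were. The 8 ES cell markers summed to 3681, 4508 and 4294 CPM in LINE1 ASO libraries and to 4958, 5437 and 5232 CPM in RC ASO libraries. Pou5f1 alone was called lower without the block (1.17% of all genes), and 7 of the 8 were with it (16.1% of all genes). Of 10 tested markers of primitive endoderm, trophoblast, mesoderm and neural cells, Krt7 and Pdgfra (20%) were called higher without the block, where 4.93% of all genes were. The 13 listed summed to 129.5 to 140.5 CPM in LINE1 ASO libraries and 114.2 to 130.5 CPM in RC ASO libraries. The 45S ribosomal RNA precursor Rn45s took 0.217% to 0.274% of reads in LINE1 ASO libraries and 0.267% to 0.727% in RC ASO libraries. The part of these differences in the respiratory chain values was not tested, and in bulk RNA fewer cells of a type cannot be told apart from less RNA per cell.

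Reads shared between genes touch many members. At least 5% of the 50-base sequences occur in other genes for 34 members, and 33 members overlap exons of another gene, 30 of them on the opposite strand. The 51 tested members with under 5% shared had a median log2 fold change of -0.18, with 46 below 0 and 29 called lower with the block, and the tested members with at least 5% shared had a median of -0.21. Of 53 tested members without overlapping exons 34 were called lower with the block, where 16.1% of all genes were. Replicate 2 was the highest library of both arms in 29 tested members and the lowest of both arms in 19.

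Promoters of the members were read for motifs of factors known for nuclear respiratory genes, since most members shared a direction. RefSeq promoters (GRCm38.p6, 250 bases before to 50 after the start) were matched by symbol for 72 of 88 members, and motifs were searched by exact letters on both strands. Older symbols of members were resolved through synonyms. The tested genes of the comparison were matched without synonyms, so the sets were matched by unlike rules. GCATGCG, the core of the motif of NRF1, an activator of many respiratory genes, was found in 11 member promoters (15.3%), against 6.38% of 10372 promoters of tested genes and 3.64% of all 27025. CCGGAAG, the motif of GABPA (also called NRF2) and other ETS factors, was found in 16 (22.2%), against 16.6% and 9.12%. AAGATGG, the start of a motif known for YY1, was found in 11 (15.3%), against 6.87% and 6.48%. The promoters of 47 members called lower with the block held these motifs in 8 (17.0%), 10 (21.3%) and 10 (21.3%) cases. Those of 23 tested members not called held them in 3 (13.0%), 6 (26.1%) and 1 (4.35%). The letters were chosen after seeing the data, and these differences were not tested. A match is a description of these letters and not of binding, and no match says nothing of the factor.

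The bases before the start are printed 5′ to 3′ on the gene's strand for Cox7b, the member with the largest change, and for 3 members that hold the NRF1 letters close to or well before the start, with the motifs in capitals. Cox7b (chrX:106015450-106015699, plus strand) holds none of the letters searched. In Cox6a1, a broadly expressed complex IV subunit (chr5:115348959-115349208, minus strand), the NRF1 letters lie on both strands from -161 and from -160, and the GABPA letters lie on the reverse strand from -16. In Atp5k, the e subunit of complex V (chr5:108434400-108434649, minus strand), the NRF1 letters lie from -49 and -48, and in Atp5g2 (chr15:102671048-102671297, minus strand) from -41 and -40. Atp5k also holds the GABPA letters on the reverse strand from 13, after the start and outside the bases printed. With the block Cox7b, Cox6a1 and Atp5g2 were called lower and Atp5k was not.
Cox7b: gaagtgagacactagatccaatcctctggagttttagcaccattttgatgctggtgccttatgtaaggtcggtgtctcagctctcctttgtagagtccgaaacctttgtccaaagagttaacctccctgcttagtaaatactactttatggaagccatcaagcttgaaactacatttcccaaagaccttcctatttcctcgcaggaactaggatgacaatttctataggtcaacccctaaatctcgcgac
Cox6a1: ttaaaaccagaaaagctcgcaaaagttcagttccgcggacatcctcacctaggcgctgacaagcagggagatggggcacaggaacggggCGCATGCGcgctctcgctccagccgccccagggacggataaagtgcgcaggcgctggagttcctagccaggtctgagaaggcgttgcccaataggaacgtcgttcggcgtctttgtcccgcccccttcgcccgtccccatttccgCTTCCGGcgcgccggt
Atp5k: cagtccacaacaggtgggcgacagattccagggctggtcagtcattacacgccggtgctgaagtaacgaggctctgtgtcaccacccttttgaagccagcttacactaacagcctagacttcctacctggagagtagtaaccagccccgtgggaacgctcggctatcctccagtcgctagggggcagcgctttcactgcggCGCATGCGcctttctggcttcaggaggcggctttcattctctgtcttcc
Atp5g2: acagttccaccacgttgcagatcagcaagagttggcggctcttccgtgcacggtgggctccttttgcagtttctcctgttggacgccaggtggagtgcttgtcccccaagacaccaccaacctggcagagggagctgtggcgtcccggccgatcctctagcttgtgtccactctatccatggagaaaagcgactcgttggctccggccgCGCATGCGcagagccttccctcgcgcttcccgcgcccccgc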

How the data were processed

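The authors deposited unscaled counts of reads, with a table of gene symbols, a table of repeat names and 1 column per library in each. The build mm9 and the tools DESeq2 1.12.3, R 3.3.0, HTSeq 0.6.1p1 and TopHat2 2.0.9 are named in the submitters' processing notes. Strand setting, annotation release and treatment of multi-mapping reads were not given in the sources used here. The gene table was fitted whole with edgeR 4.0.16 (limma 3.58.1, R 4.3.3, filterByExpr with a minimum count of 10 and total of 15, TMM, robust quasi-likelihood F tests, Benjamini-Hochberg over 14725 genes, adjusted p under 0.05), and the scripts were tested on simulated data. Standard errors are the log2 fold change over the square root of F. RPKM used the length of the APPRIS principal transcript (GENCODE M21). Repeat counts were used for L1Md alone.

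Tried in turn were the replicate block, library totals or RLE factors in place of TMM, DESeq2 1.42.0, no filter on counts or one of 1 CPM in all libraries of 1 arm, a minimum change of 1.2-fold, and omission of each library; leaving out both replicate 2 libraries was added after seeing the data. Same-number libraries had correlated deviations from their arm means (0.436, 0.659 and 0.394), while for other pairs of libraries r ran from -0.475 to 0.220. As all 3 exceeded 0.1, numbers were treated as pairs, although no label says what a number shares. That limit does not single out same-number pairs. LINE1 ASO library 1 with RC ASO library 3 (0.220) and LINE1 ASO library 3 with RC ASO library 1 (0.120) also exceeded it. Members and lists were chosen with earlier results of these data known. Genes named are those called, the extremes and the highest level per length of each complex, a catalytic panel, tissue isoforms, members below the filter and up to 4 called genes of each pathway list. Motif letters were chosen after seeing the data, and longer forms of the NRF1 and YY1 motifs had been searched before them.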

Additional observations from a re-analysis of the deposited data

How the results depend on the processing

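Members called lower numbered 4, with 1 under library totals, 57 with the replicate block, 32 without both replicate 2 libraries, 23 by DESeq2 and 1 to 11 with 1 library left out; members called higher numbered 0, with 1 under the replicate block. With the replicate block 22, 3, 8, 9 and 12 members of complexes I to V were called lower and 1 of complex IV higher, without both replicate 2 libraries 7, 3, 5, 5 and 11 lower, and by DESeq2 8, 2, 0, 4 and 9 lower. With library totals 0 members of complexes I and V were called, and 4 of complex V were with RLE factors and with no count filter. Leaving out 1 library gave 0 to 4, 0 to 1, 0 to 2, 1 to 1 and 0 to 6 for complexes I to V. The median of the members was -0.12 with library totals, -0.23 with no count filter and -0.25 to -0.20 with 1 library left out. Medians of complexes I to V were -0.089, -0.19, -0.11, -0.14 and -0.16 with library totals; with no count filter those of I, IV and V were -0.20, -0.26 and -0.27, with RLE factors those of IV and V were -0.25 and -0.26, and with DESeq2 -0.25 and -0.26. With 1 library left out they were -0.25 to -0.18 for I, -0.34 to -0.25 for II, -0.26 to -0.19 for III, -0.25 to -0.18 for IV and -0.28 to -0.24 for V. Every median named stayed below 0. Over all genes 173 were called lower and 726 higher, with 50 lower under library totals, 2373 lower and 2591 higher with the replicate block, 1229 and 1810 without both replicate 2 libraries, 599 lower by DESeq2, and 2 to 479 lower and 158 to 1041 higher with 1 library left out. The sign turned for genes near 0 or with wide spread. With library totals Cox7a1 was at 0.073 and Ndufs8 at 0.080. With 1 library left out Cox6b2 ranged from -0.011 to 0.64 (lowest without LINE1 ASO replicate 2), Cox7a1 from -0.21 to 0.14 (above 0 without RC ASO replicate 2, RC ASO replicate 3 or LINE1 ASO replicate 1), Ndufa4l2 from -1.19 to 0.092 (highest without RC ASO replicate 2), Ndufb9 from -0.017 to 0.18 (lowest without LINE1 ASO replicate 1) and Ndufs8 from -0.078 to 0.0073 (above 0 without RC ASO replicate 1 or 3). The causes were not tested. Where 1 library was left out, 1 arm held 2 libraries. Depth limits Cox6a2, Cox7b2 and Cox8c, and the shallowest library was RC ASO replicate 1.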
